A study of Mus musculus with 28 samples.

Results

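The Hox genes encode homeodomain transcription factors that lie side by side in 4 clusters of the mouse genome, HoxA on chromosome 6, HoxB on chromosome 11, HoxC on chromosome 15 and HoxD on chromosome 2. The 38 Hox genes described here were listed by name (10 of HoxA, 10 of HoxB, 9 of HoxC and 9 of HoxD) and located with the GENCODE M21 annotation of the mm10 genome, out of 21853 protein-coding genes. An accessible region was assigned to a Hox gene when it overlapped the gene or the 2 kb to each side. This rule took 7 of the 46189 regions of control Müller cells and 10 of the 64883 regions of db/db Müller cells.

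ATAC-seq, in which a transposase cuts and tags open chromatin, had been performed on Müller cells, the main glia of the retina, from mice 6 months of age. Control mice are labelled WT, and the study also counts heterozygous carriers among its controls. Db/db mice are homozygous for a Lepr (leptin receptor) mutation on a BKS background from 2 suppliers and become obese and diabetic. The cells came from dissociated retinae by magnetic sorting, after removal of CD11b+ and CD31+ cells, through the surface protein CD29. Of the 2 ATAC-seq replicates per genotype, 1 peak list per genotype was analysed here, so no difference between control and db/db has a replicate check and none was tested. Promoters of 10 of 10 Müller cell markers were open in both lists, against 58.4% of all protein-coding genes in control and 61.4% in db/db. The median percentile of their signal was 37.5 in control and 51.5 in db/db. Clu was highest, at the 66.9th percentile in control and the 74.2nd in db/db, and Slc1a3 lowest, at 4.54 and 6.22. Markers of other cells were open less evenly. Open rod promoters numbered 8 of 9 in the control and 4 of 9 in the db/db list (Nr2e3, Pde6b, Gnat1 and Cnga1 were open in control alone). In both lists 1 of 6 microglial, 2 of 6 vascular and 1 of 5 other neuronal marker promoters were open. The part of the rod cells in the differences between lists given below was not tested. In sorted bulk cells, a region open in few cells and a region weakly open in all cannot be told apart.

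Hox genes set the identity of segments along the body axis. Within a cluster they are numbered by paralog group, and genes of low number act towards the head (anterior) while genes of high number act towards the tail (posterior), in the order in which they lie on the chromosome. The retina forms from the forebrain, anterior to the region in which Hox genes are used, and in tissues that do not use them the clusters are known to be held silent by Polycomb proteins. Many Hox promoters are rich in CG dinucleotides, a feature shared with the promoters of genes used in every cell.

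Promoter sequences are printed to set Hox promoters beside those of flanking genes, each the 250 bases before the RefSeq transcription start site (TSS) on GRCm38.p6, read 5′ to 3′ on the strand of the gene with each CG in capitals. The first 4 belong to Hox genes, 1 from each cluster, and overlapped no region in either list. Hoxa13 (chr6:52260881-52261130, minus strand, 35 CG) and Hoxd13 (chr2:74667975-74668224, plus strand, 31 CG) are the paralogs that pattern the digits. Hoxb4 (chr11:96318017-96318266, plus strand, 14 CG) and Hoxc4 (chr15:103034145-103034394, plus strand, 8 CG) belong to the paralog group of the neck vertebrae. The last pair are the nearest coding genes beyond the anterior end of HoxA and HoxD, and both overlapped a region in each list. They are Skap2, an adaptor protein of integrin signalling (chr6:52012550-52012799, minus strand, 24 CG), and Mtx2, a mitochondrial import protein (chr2:74825562-74825811, plus strand, 12 CG).
Hoxa13: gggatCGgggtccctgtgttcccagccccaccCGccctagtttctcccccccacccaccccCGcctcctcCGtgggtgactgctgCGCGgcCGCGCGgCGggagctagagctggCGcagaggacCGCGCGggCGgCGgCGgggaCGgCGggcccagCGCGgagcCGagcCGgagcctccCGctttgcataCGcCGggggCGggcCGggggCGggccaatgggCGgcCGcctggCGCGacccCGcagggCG
Hoxd13: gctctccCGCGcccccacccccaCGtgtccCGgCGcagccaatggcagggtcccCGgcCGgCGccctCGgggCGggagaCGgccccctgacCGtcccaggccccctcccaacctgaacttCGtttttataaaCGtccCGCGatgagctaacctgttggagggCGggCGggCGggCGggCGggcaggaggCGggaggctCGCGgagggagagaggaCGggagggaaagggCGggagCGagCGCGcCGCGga
Hoxb4: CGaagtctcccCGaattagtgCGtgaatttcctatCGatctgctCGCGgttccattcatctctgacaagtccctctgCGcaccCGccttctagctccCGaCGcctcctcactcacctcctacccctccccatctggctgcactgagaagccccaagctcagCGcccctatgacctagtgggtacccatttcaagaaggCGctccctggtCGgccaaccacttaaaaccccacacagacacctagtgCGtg
Hoxc4: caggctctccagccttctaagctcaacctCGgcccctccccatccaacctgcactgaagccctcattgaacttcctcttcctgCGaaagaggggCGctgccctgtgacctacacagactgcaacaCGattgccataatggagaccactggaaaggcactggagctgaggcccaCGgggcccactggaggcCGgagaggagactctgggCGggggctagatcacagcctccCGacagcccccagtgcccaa
Skap2: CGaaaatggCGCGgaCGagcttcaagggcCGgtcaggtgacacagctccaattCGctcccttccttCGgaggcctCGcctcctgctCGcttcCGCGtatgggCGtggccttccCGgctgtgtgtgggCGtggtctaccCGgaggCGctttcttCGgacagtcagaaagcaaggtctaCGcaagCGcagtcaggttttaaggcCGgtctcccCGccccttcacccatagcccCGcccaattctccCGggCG
Mtx2: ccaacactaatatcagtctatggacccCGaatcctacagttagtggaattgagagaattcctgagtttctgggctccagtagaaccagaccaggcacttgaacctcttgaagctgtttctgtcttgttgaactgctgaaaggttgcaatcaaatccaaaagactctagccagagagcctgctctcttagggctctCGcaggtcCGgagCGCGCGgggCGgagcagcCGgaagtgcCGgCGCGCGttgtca

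The Hoxa13 and Hoxd13 windows are 80.0% and 74.4% G or C and hold more CG than the open windows of Skap2 and Mtx2, which are 64.0% and 53.2% G or C. The Hoxc4 window is the poorest in CG of the 6, with 0.34 of the number that its base composition would give.

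Nearly all Hox promoters were closed in both lists. A promoter was called open when a region lay within 1 kb of a TSS of a protein-coding transcript of the gene. By this measure 2 of 38 Hox promoters were open in control and the same 2, Hoxa7 and Hoxb9, were open in db/db. That is 5.26% in each list (95% Wilson interval 1.46% to 17.3%, counting error only), against 58.4% of all protein-coding genes in control and 61.4% in db/db. The other 36 were closed in both lists.

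**Figure D1:**
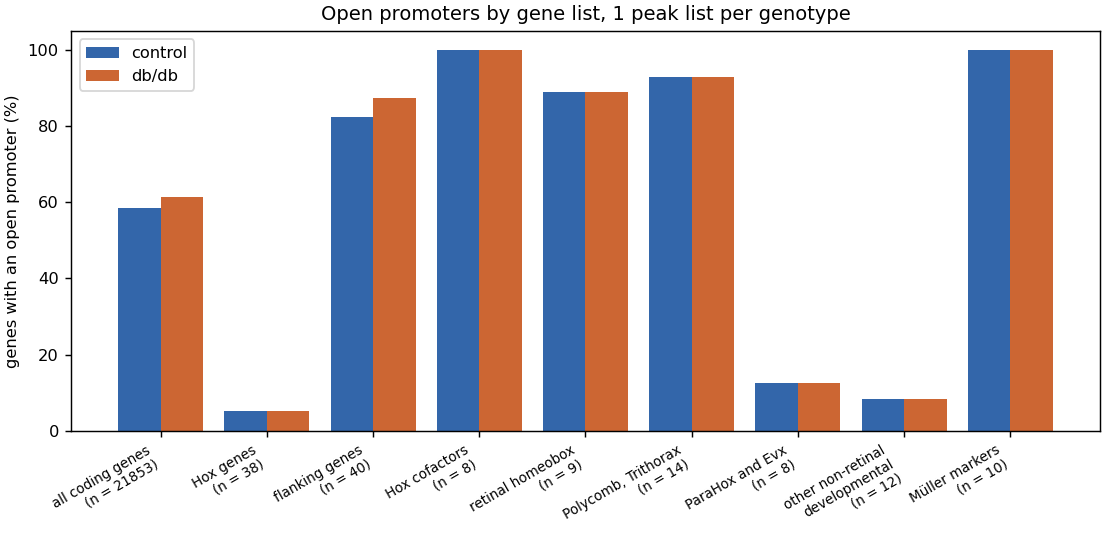
Share of genes with an open promoter (vertical axis, percent) in each gene list, with control in blue and db/db in orange and the number of genes below each pair of bars. Each bar is 1 peak list, so there is no error bar. Hox genes stand at 5.26% in both lists, beside 82.5% and 87.5% of the flanking genes.

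Hoxa7, which patterns the trunk vertebrae, was the only Hox gene with a region across one of its TSSs. The region (chr6:52221332-52222210 in control) covered the 5′ end of the gene, with its summit in an exon of Hoxa7. Hoxa7 has 4 coding TSSs in the annotation, and the RefSeq start lies downstream of this one, outside the region. Its signal, the fold enrichment as deposited, was 10.9 in control and 11.1 in db/db, at the 52.0th and 67.7th percentile of all regions of the same list. Hoxb9, of the thoracic segments, owed its open call to a weak region in its intron (chr11:96272139-96272638 in control). That region lay 616 bp from the nearest TSS in control and 587 bp in db/db. Its signal of 7.25 was at the 20.7th percentile in control, and its signal of 5.17 was at the 15.1st percentile in db/db. Only Hoxa7 counted as open with a window of 500 bp or when the region had to cover the TSS. When the annotated 5′ end of each gene replaced its coding TSSs, Hoxc6 was added, with a region 738 bp away in control and 758 bp in db/db.

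Regions were also assigned to a smaller share of Hox genes than of all coding genes. This share includes the promoter and was not adjusted for gene length. A region lay within the gene or 2 kb to each side for 10 of 38 members in control (26.3%) and 11 in db/db (28.9%), against 67.6% and 70.8% of all coding genes. Beside Hoxa7 and Hoxb9 these were Hoxa3, Hoxa9, Hoxc5, Hoxc6, Hoxd3, Hoxd4, Hoxd12 and Hoxd13 in both lists, and Hoxa13 in db/db alone. Members share these regions, since 4 of the 7 control regions each lay within 2 kb of a pair of Hox genes. By cluster, members with a region numbered 3 of 10 in HoxA in control and 4 in db/db, and in both lists 1 of 10 in HoxB, 2 of 9 in HoxC and 4 of 9 in HoxD.

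Along the paralog groups, no promoter was open in groups 1 to 4 (0 of 11), 1 of 11 was open in groups 5 to 8 and 1 of 16 in groups 9 to 13, the same in both lists. In both lists a region was assigned to 3 of 11 members of groups 1 to 4 and to 3 of 11 members of groups 5 to 8. In groups 9 to 13 these were 4 of 16 members in control and 5 of 16 in db/db. Those of groups 1 to 4 were Hoxa3, Hoxd3 and Hoxd4, with long gene models of 44.3, 36.5 and 17.2 kb. The Hoxa3 model spans Hoxa4, Hoxa5 and Hoxa6, and the 50.0 kb Hoxc5 model also spans other Hox genes. The assignment to a paralog group thus depends on these models. Paralog groups 1, 2, 8, 10 and 11 had no region in either list. These counts are too small to order the paralog groups.

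The distance from a Hox TSS to the nearest region had a median of 13.7 kb in control and 10.9 kb in db/db, while the median over all coding genes was 0 bp in both lists. For 23 members in control and 21 in db/db it was over 10 kb, a distance passed by 31.5% and 27.6% of all coding genes. The most anterior genes were among the farthest. Hoxb1, which gives the fourth hindbrain segment its identity, was 86.6 kb from a region in control and 47.7 kb in db/db. Hoxb2 was at 72.5 and 61.9 kb, Hoxd1 at 46.8 kb in both, and Hoxa2, which patterns the second pharyngeal arch, at 46.6 and 32.5 kb. The shorter db/db distances of Hoxb1, Hoxb2 and Hoxa2 come from regions found in the longer db/db list alone.

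The posterior end held far promoters too. Hoxc13, a regulator of hair and nail, was 66.3 kb from a region in control and 66.1 kb in db/db, and Hoxc12 was at 50.7 and 50.4 kb. Hoxb13, which lies apart from the rest of HoxB and is known from the prostate, was at 48.3 kb in both lists. Hoxa13 moved from 38.6 kb in control to 3.41 kb in db/db with 1 region of the db/db list alone. Closest among the closed promoters were Hoxa3, needed for thymus and parathyroid, at 1.15 and 1.19 kb, and Hoxd12 at 1.72 and 1.68 kb, both just outside the 1 kb limit. Hoxa6 at 2.71 kb in both, Hoxc8 at 2.74 and 2.73 kb and Hoxb8 at 2.80 and 2.79 kb followed.

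The remaining HoxA and HoxB genes lay from 3.98 to 44.2 kb from a region in control. In HoxB the distance grew gene by gene from Hoxb8 towards the anterior end, with Hoxb7 at 7.51 kb, Hoxb6 at 13.4 kb, Hoxb5 at 24.4 kb, Hoxb4 at 39.2 kb and Hoxb3 at 44.2 kb in both lists, with no region between them. In HoxA, Hoxa5, a factor of the lung, was at 6.84 kb in both lists, and Hoxa4 at 19.7 kb in control and 5.61 kb in db/db. Hoxa9, known from blood progenitors, was at 3.98 and 4.19 kb, Hoxa10, of the uterus, at 12.7 and 12.9 kb, and Hoxa11 at 23.6 and 11.2 kb.

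In HoxC the control distances of the remaining genes were 9.72 kb for Hoxc6, 10.4 kb for Hoxc9, 14.0 kb for Hoxc5, 19.1 kb for Hoxc4, 20.6 kb for Hoxc10 and 33.0 kb for Hoxc11. In HoxD they were 3.86 kb for Hoxd3, 4.67 kb for Hoxd13, 5.82 kb for Hoxd4, 9.03 kb for Hoxd11, 10.6 kb for Hoxd8, 18.1 kb for Hoxd9 and 18.6 kb for Hoxd10. Over all 18 HoxC and HoxD genes the db/db distance differed from the control one by at most 0.276 kb. Hoxc10 and Hoxd10 are both factors of lumbar motor neurons, and Hoxc4 and Hoxd9, of other paralog groups, lay at like distances.

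**Figure D2:**
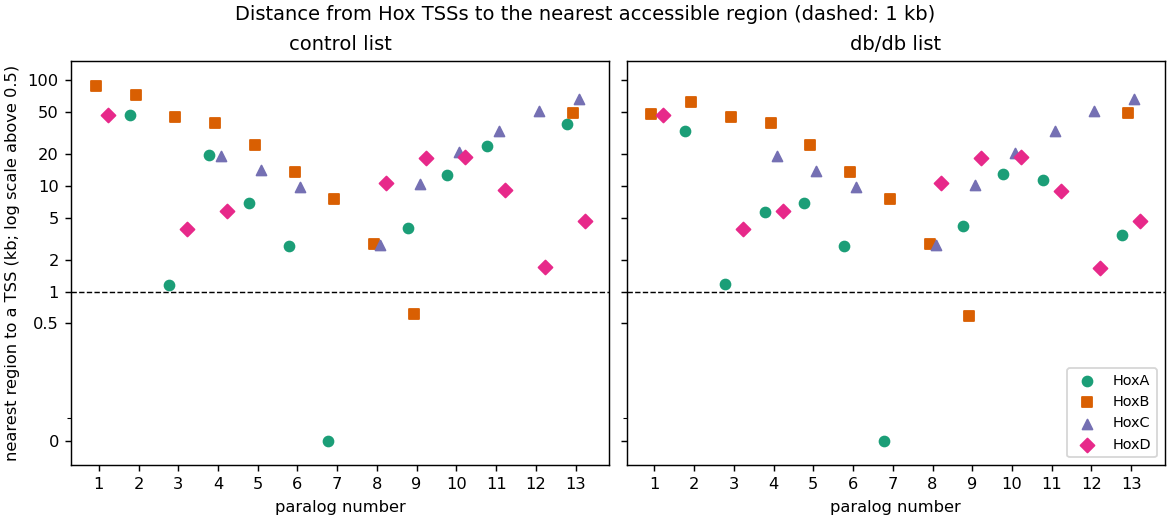
Distance from the coding TSSs of each of the 38 Hox genes to the nearest region (vertical axis, kb, linear up to 0.5 and logarithmic above) by paralog number (horizontal axis) in the control list (left) and the db/db list (right), with 1 symbol per cluster. Only Hoxa7 at 0 and Hoxb9 lie under the dashed line at 1 kb in either panel.

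The 7 control regions were of middling strength. Their percentiles ran from 20.7 to 55.7 with a median of 47.5, 3 were above the median region of the list and none was above the 75th percentile. Regions within 1 kb of any coding TSS had a median percentile of 71.9 in control and 73.3 in db/db, and all other regions 43.3 and 44.5. The 10 db/db regions ran from the 0.0208th to the 75.9th percentile with a median of 42.5, and 5 were above the median region. Hox regions were also narrow, with a median width of 500 bp in control and 438 bp in db/db, against 738 and 662 bp over all regions. Ranked by −log10 p in place of signal, the median percentile of the Hox regions was 28.0 in control and 29.3 in db/db.

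In HoxA, besides the Hoxa7 region, a region in an intron of Hoxa3 and of the antisense RNA gene Hoxaas3 (chr6:52211429-52211963 in control) was in both lists. Its signal was 10.3 in control and 9.55 in db/db, at the 47.5th and 57.5th percentile. The strongest region of HoxC in both lists lay in an intron of the long Hoxc5 gene model (chr15:102987432-102987863), 2744 bp from the TSS of Hoxc8, a determinant of motor neurons that serve the forelimb. It had a signal of 11.4 at the 55.7th percentile in control and of 9.80 at the 59.4th in db/db. A wider HoxC region in an intron of both Hoxc5 and Hoxc6 (chr15:102998995-102999857) was at the 40.6th percentile in control and the 50.7th in db/db.

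In HoxD a region over an exon of the antisense RNA gene Hoxd3os1 and an intron of Hoxd3 and Hoxd4 (chr2:74715790-74716158) had a signal of 11.2 at the 54.4th percentile in control. In db/db its signal was 12.6 at the 75.9th percentile, which made it the strongest Hox region of that list. Hoxd3 and Hoxd4 pattern the first vertebrae. A weaker region lay between Hoxd13 and Hoxd12 (chr2:74672976-74673296), 1377 bp from Hoxd13 and 1717 bp from the TSS of Hoxd12. Its signal was 7.51 at the 23.1st percentile in control and 6.97 at the 34.4th in db/db.

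HoxB held 1 more region that the rule did not take, since it lay 2240 bp from Hoxb9, between Hoxb9 and Hoxb8 (chr11:96278835-96279109 in control). With a signal of 12.7 at the 64.4th percentile in control and 10.7 at the 65.5th in db/db it ranked above every Hox region that the rule took in control.

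**Figure D3:**
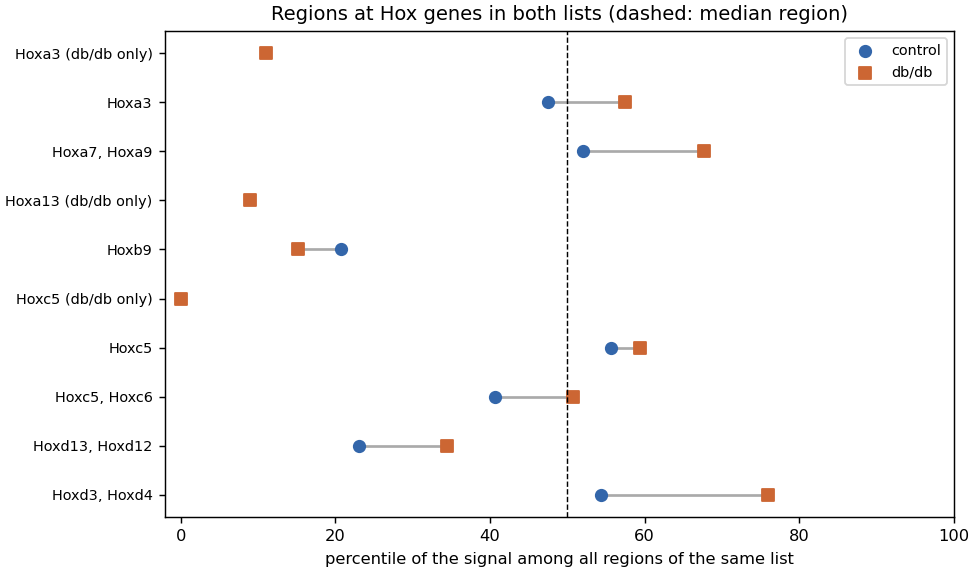
Percentile of the signal among all regions of the same list (horizontal axis) for each region at a Hox gene (1 row each, named by the members within 2 kb), with control as blue circles and db/db as orange squares. The 7 shared regions are joined by a line and sit between 15.1 and 75.9, and the 3 regions of the db/db list alone lie at or under 11.0.

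All 7 control regions had an overlapping region in db/db, so 0 of 7 were found in control alone (95% Wilson interval 0% to 35.4%), where 4.16% of all control regions were. Of the 10 db/db regions 3 were found in db/db alone, which is 30.0% (10.8% to 60.3%), beside 31.3% of all db/db regions. The share at Hox genes was thus close to that of the whole list. All 3 were weak. One lay in the intron of Hoxa3 and Hoxaas3 (chr6:52197360-52197569), with a signal of 4.78 at the 11.0th percentile. Another lay 302 bp from Hoxa13 in an exon of the noncoding gene 9530018H14Rik (chr6:52257032-52257392), with a signal of 4.55 at the 8.89th percentile. The third, in the intron of Hoxc5 (chr15:102987156-102987349), had a signal of 1.72 and a −log10 q of 0.757, among the lowest of its list. With the db/db list cut to the 46189 regions of highest −log10 p, none of the 3 was left. By this ranking the shared regions of Hoxb9 and of Hoxd13 and Hoxd12 also fell out of the db/db list.

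Percentiles were higher in db/db for 6 of the 7 shared regions and lower for Hoxb9, with a median change of 10.1 points (range -5.59 to 21.5). Over all 43519 shared regions with a single partner the median change was 8.52 points, and 14.9 points over the 15254 of them that lay in the same span of control percentiles. The regions of the db/db list alone had a median percentile of 23.5, and each weak region added to a list raises the percentile of stronger ones. Ranked among the shared regions alone, the median change at Hox genes was -4.20 points (range -12.6 to 12.6), with 2 regions higher in db/db and 5 lower, while the median over all shared regions was 0.0873 points. In that ranking the Hoxd3 and Hoxd4 region rose by 12.6 points, from 52.4 to 65.0, and the Hoxb9 region fell by 12.6 points, from 18.9 to 6.29. From the 5th to the 95th percentile the changes of all shared regions ran from -16.8 to 16.9 points, and all 7 Hox regions lay within that range.

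The flanking genes were mostly open, apart from those nearest to the clusters. Of the 5 nearest non-Hox coding genes to each side of each cluster, 40 in all, 33 had an open promoter in control (82.5%, 68.1% to 91.3%) and 35 in db/db (87.5%, 73.9% to 94.5%). Over all coding genes the shares were 58.4% and 61.4%. The median percentile of the flanking promoter regions was 82.6 in control and 80.9 in db/db. By cluster the open flanking genes numbered 9 of 10 in both lists at HoxA and at HoxD, 6 and 7 of 10 at HoxB, and 9 and 10 of 10 at HoxC.

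The genes nearest to each end of a cluster were split, with 4 of 8 open in both lists (50.0%, 21.5% to 78.5%). Skap2, anterior to HoxA, was open at the 99.0th percentile in control and the 97.4th in db/db. Mtx2, anterior to HoxD, was at the 87.1st and 91.9th. Calcoco1, posterior to HoxC, was at the 97.7th and 99.6th percentile. Smug1, a DNA repair enzyme anterior to HoxC, was open with a weak region, at the 3.01st percentile in control and the 34.9th in db/db. The other 4 nearest neighbours were closed in both lists. They were the homeobox genes Evx1 (91.3 kb from a region in control, 56.1 kb in db/db) and Evx2 (13.4 kb in both), which lie at the posterior ends of HoxA and HoxD, Ttll6 posterior to HoxB (11.5 and 11.4 kb), and the T cell adaptor gene Skap1 anterior to HoxB (181 and 50.6 kb).

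Open in both lists around HoxA were also Snx10, Cbx3, Hnrnpa2b1, Nfe2l3, Hibadh, Tax1bp1, Jazf1 and Creb5. Around HoxB these were Atp5g1, Ube2z, Snx11, Cbx1, Nfe2l1 and Copz2, while Calcoco2 was closed in both and Snf8 was open in db/db alone, at the 29.5th percentile. Around HoxC, Atp5g2, Atf7, Tarbp2, Cbx5, Hnrnpa1, Nfe2 and Copz1 were open in both, and Npff in db/db alone, at the 39.2nd percentile. Around HoxD they were Lnpk, Atp5g3, Atf2, Chn1, Hnrnpa3, Nfe2l2, Agps and Ttc30b. Several of these families, such as Cbx, Snx, Nfe2, Hnrnpa, Atp5g and Copz, have a member beside more than 1 Hox cluster.

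**Figure D4:**
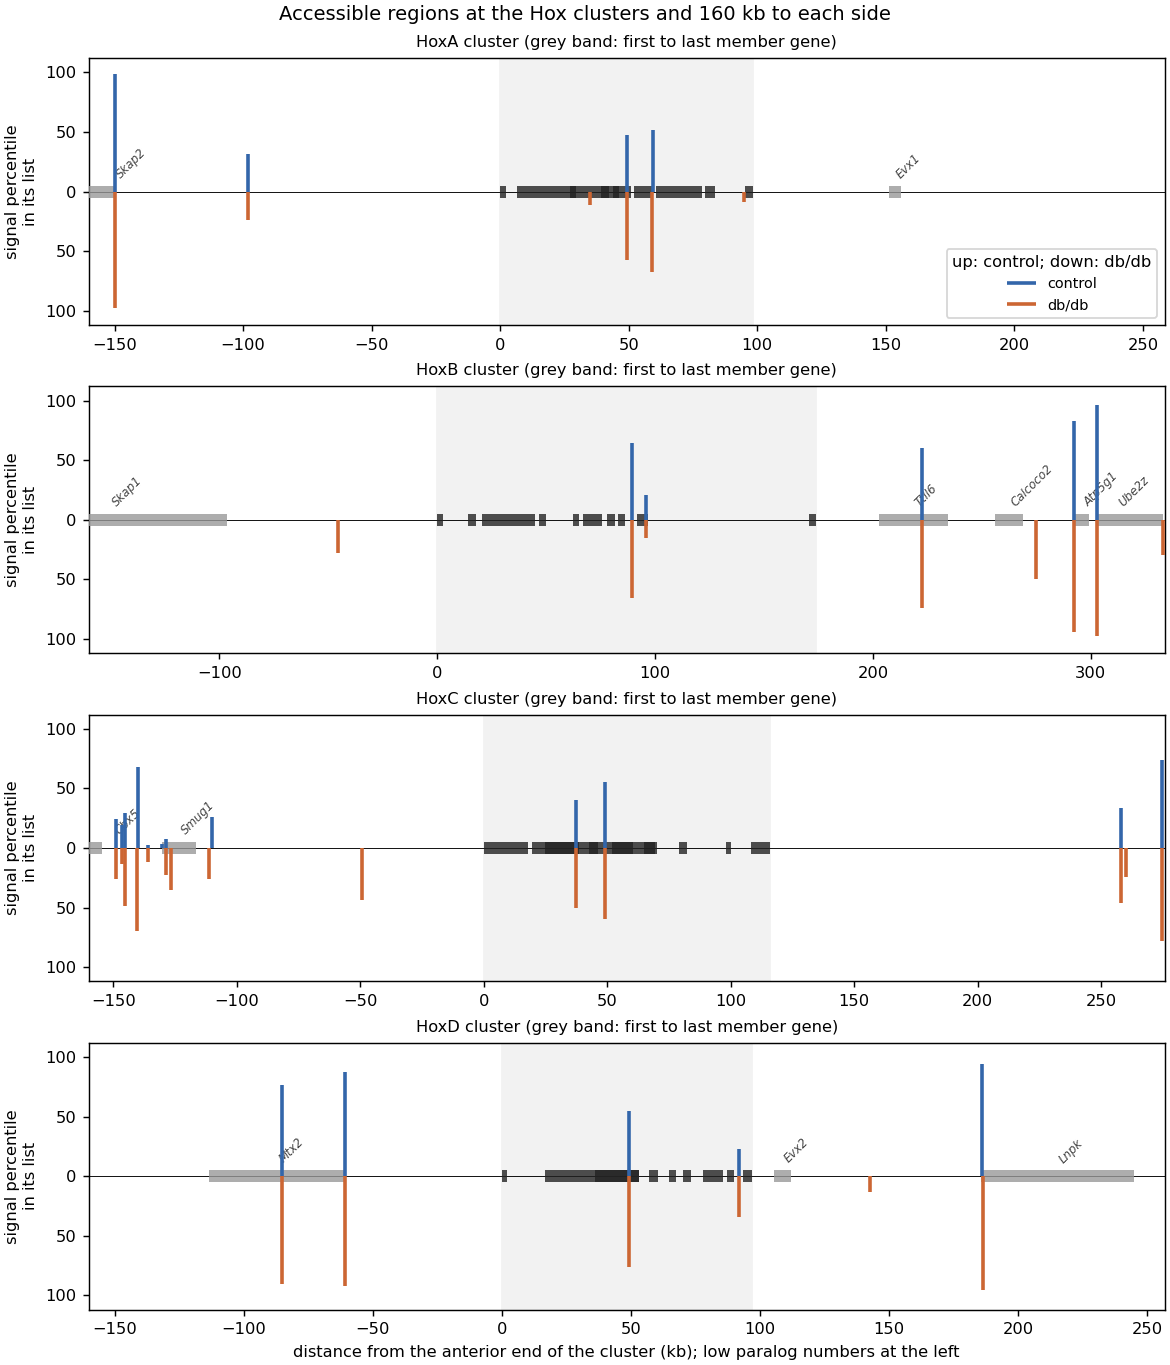
Regions along the 4 Hox clusters and 160 kb to each side, by distance in kb from the anterior end of the cluster (horizontal axis), with bar height as the percentile of the signal in the list, control upwards in blue and db/db downwards in orange. Black boxes are Hox genes and grey boxes flanking coding genes (names too close to another are left out). Bars inside the grey bands reach at most 75.9, and the db/db region of the 0.0208th percentile in HoxC is too low to be seen.

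Counted per length and summed over the 4 clusters, regions were not fewer than in the DNA beside them, but the clusters differed. The 4 clusters with 2 kb to each side span 501 kb and held 8 control regions (1.60 per 100 kb) and 11 db/db regions (2.20 per 100 kb). Intervals of the same length on both sides, 1000 kb in all, held 8 (0.798 per 100 kb) and 13 (1.30 per 100 kb). Regions covered 0.833% of the clusters in control and 1.01% in db/db, against 0.629% and 0.917% of the sides. The sides hold 0 to 6 coding genes per interval, fewer than the clusters. HoxA held 1.95 regions per 100 kb in control and 3.90 in db/db, against 0.976 on its anterior side in both lists and 0 on its posterior side. HoxC held 1.67 in control and 2.51 in db/db, against 0.835 and 1.67 on its anterior side and 0 on its posterior side. HoxB held 1.12 per 100 kb in both lists. Its posterior side held 1.69 in control and 2.81 in db/db, and its anterior side 0 and 0.562. HoxD held 1.98 in both lists, the same as its anterior side, against 0.992 in control and 1.98 in db/db on its posterior side. Covered length was lower in HoxD than on either side, with 0.684% in control against 1.21% and 1.35%, and 0.836% in db/db against 1.64% and 1.44%. In HoxB it was 0.436% in control and 0.493% in db/db, between the posterior side (1.29% and 2.02%) and the anterior side (0% and 0.27%). In HoxA and HoxC it was higher than on either side in both lists.

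The Hox promoter windows that could be matched were closed at every CG content. RefSeq promoter windows of 250 bases before a start site were matched to 22 of the 38 members (24 windows). Those without a match were Hoxa4, Hoxb2, Hoxb3, Hoxb5, Hoxb6, Hoxb7, Hoxb9, Hoxb13, Hoxc5, Hoxc6 and Hoxc8 to Hoxc13. Hoxb9 thus had no window and that of Hoxa7 lies at its downstream start, so the windows cover neither region behind an open call. None of the 24 overlapped a region in either list, against 53.6% of the 21255 windows of all coding genes in control and 56.2% in db/db. The Hox windows held a median of 12.5 CG (2 to 35), more than the median of 10.0 over all windows. CG-rich windows, with at least 50% G or C and at least 0.6 of the CG that base composition would give, numbered 11 of 24 Hox windows, 0 of which overlapped a region. Of all CG-rich windows 89.1% did in control and 91.4% in db/db. Of the 33 CG-rich windows of the flanking genes, 32 did in control and 33 in db/db. Flanking genes were more often CG-rich, with 70.2% of their windows, beside 45.8% of Hox windows and 41.5% of all windows.

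The 11 CG-rich Hox windows belong to Hoxa3, Hoxa5, Hoxa6, Hoxa10, Hoxa11, Hoxa13, Hoxb4, Hoxd1, Hoxd10, Hoxd11 and Hoxd13. They are of paralog groups 1, 3 to 6, 10, 11 and 13, and the only HoxC window, that of Hoxc4, was not among them. Over all coding genes the share of open windows rose with CG number, from 8.74% with 0 to 4 CG to 90.6% with 25 to 56 CG in control, and from 10.4% to 93.1% in db/db. Of the 24 Hox windows, 9 held under 10 CG, where most windows of all genes were closed too (8.74% open with 0 to 4 CG and 45.4% with 5 to 9 CG in control). The other 15 held 10 or more, where at least 78.6% of all windows were open in control and 82.2% in db/db. The 3 Hox windows of the highest class, like the Hoxa13 and Hoxd13 sequences printed above, were all closed.

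**Figure D5:**
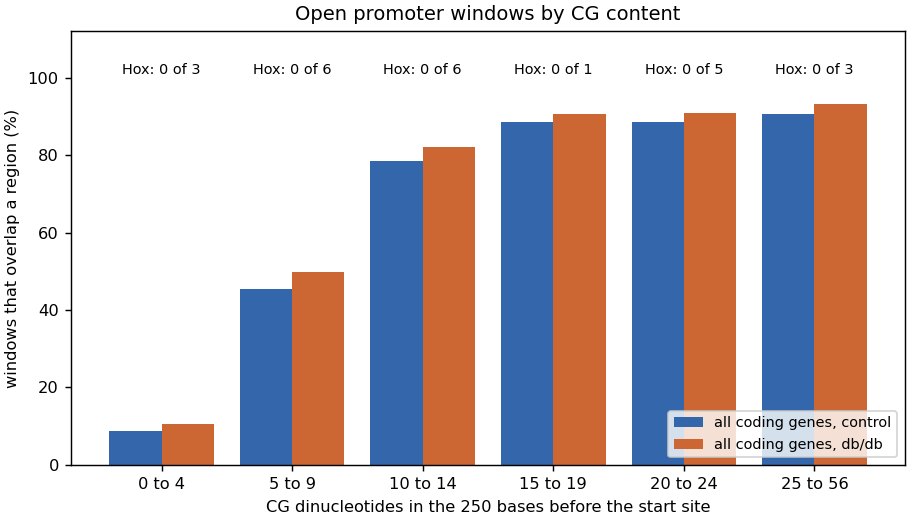
Share of 250-base promoter windows of all coding genes that overlap a region (vertical axis, percent) by number of CG dinucleotides (horizontal axis), control in blue and db/db in orange, with the number of open Hox windows above each class. The share climbs from 8.74% to 90.6% in control, while no Hox window of any class is open.

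Regions were also set against the noncoding genes within the clusters. Many of these genes are short and no share over all noncoding genes was computed, so the counts are a description only. None of the 7 annotated microRNA genes within the clusters overlapped a region in either list. The nearest regions in control were 6.87 kb from Mir196a-1, 7.87 kb from Mir196b, 9.91 kb from Mir10b, 14.0 kb from Mir196a-2, 15.1 kb from Mir615 and 38.1 kb from Mir10a. The miR-10 and miR-196 families are known to act on Hox messenger RNAs. Of 37 other noncoding genes, 2 were overlapped in control (Hoxaas3 and Hoxd3os1) and 3 in db/db, with 9530018H14Rik added. Hotair and Hottip, long noncoding RNAs known from the regulation of Hox clusters by chromatin complexes, were 39.7 and 40.6 kb from a region in control and 39.4 and 5.38 kb in db/db.

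CTCF, the zinc finger protein that marks domain borders within Hox clusters, was looked for as a letter match only. The string was CC, any 3 bases, AG, any 2 bases and GGC, on both strands, within 50 bp of a summit and in exonic bases, since the sequence came from annotated transcripts. This allowed a search of 2 of the 7 control regions and 3 of the 10 db/db regions. Both searched control regions held the string. One match lay 31 bp from the control summit of the Hoxd3 and Hoxd4 region (chr2:74715912-74715941, plus strand). The other lay 12 bp from the control and 4 bp from the db/db summit of the Hoxa7 region (chr6:52221800-52221829, minus strand). They are printed below with the string in capitals.
Hoxd3 and Hoxd4 region: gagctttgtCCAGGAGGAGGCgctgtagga
Hoxa7 region: aagaaaattCCAGGAGATGGCagtgtggct

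The db/db summit of the Hoxd3 and Hoxd4 region lies farther along, and its window had no match. Nor did that of the db/db region beside Hoxa13. Of all regions searched in the same way 8.66% held the string in control (665 of 7679) and 8.91% in db/db (846 of 9498). With 2 regions the match is a description and no count to compare.

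Promoters of genes that work with Hox proteins were mostly open. Over all coding genes 58.4% of promoters were open in control and 61.4% in db/db. Of all CG-rich promoter windows 89.1% overlapped a region in control and 91.4% in db/db. All 8 listed genes of the Pbx, Meis and Pknox families, homeodomain cofactors of Hox proteins that also act without them, were open in both lists. Pbx4 was highest, at the 81.5th percentile in control and the 90.4th in db/db, and Meis2 lowest, at the 13.5th and 24.9th. Of 14 Polycomb and Trithorax genes, whose products hold Hox genes off or on, 13 were open in both lists. Suz12, a subunit of the complex that methylates histone H3 at lysine 27, was highest at the 96.9th and 97.6th percentile, and Bmi1 lowest at the 5.36th and 14.9th. Kdm6b, which removes that methylation, was the closed one, with a region 1.53 kb from its TSS in control and 1.54 kb in db/db.

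Homeobox genes known from the retina were mostly open. Of 9 retinal homeobox genes 8 were open in both lists, against 58.4% of all coding genes in control and 61.4% in db/db. Among the 8 were Rax, Pax6, Six6, Lhx2, Vsx1 and Prox1. Six3 was the weakest in control, at the 0.431st percentile, with 2.94 in db/db. Crx, of photoreceptors, was the strongest at 80.3 in control and stood at 1.85 in db/db. Otx2 was closed by the 1 kb limit, 1.99 kb from a region in control and 20.5 kb in db/db. Crx was thus lower in rank and Otx2 farther from a region in the db/db list, and the part of rod cells in this was not tested.

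Of 8 ParaHox and Evx genes, the closest relatives of the Hox clusters, only Gsx1, a gene of the forebrain, was open, at the 36.6th percentile in control and the 63.2nd in db/db. Gsx2, Pdx1, Cdx1, Cdx2, Cdx4, Evx1 and Evx2 were closed in both lists. Of 12 other developmental factors with main roles outside the retina, such as Gata4, Myod1, Nkx2-5 and Foxa2, 1 was open, Gata6, at the 14.2nd percentile in control and the 18.1st in db/db. Hox genes, with 5.26% open, were on a level with these lists (12.5% and 8.33% open in both). Their small numbers leave no room for an order among them. These shares were below those of all coding genes, 58.4% in control and 61.4% in db/db.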

How the data were processed

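Genes came from GENCODE M21 (GRCm38, mm10, the build the labels name) and promoter sequences from RefSeq (GRCm38.p6). ATAC-seq of purified Müller cells had been deposited as 1 peak list per genotype, of 81757 rows for control and 109995 for db/db. The columns made by the authors hold a score, a fold enrichment over background (ratio, called signal here), a −log10 p and a −log10 q. The peak caller, its threshold and whether replicates were pooled are not given in the sources used here, and read depth is unknown. Signals of the lists are therefore not known to be on a common scale and are printed as deposited. Comparisons used the percentile of the signal within its own list. Changes between lists are differences of these percentiles, which depend on the regions in each list.

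Overlapping rows were merged, keeping the row of highest signal. Regions were shared when they overlapped by at least 1 bp. Intervals of shares are 95% Wilson intervals and hold counting error alone. With 1 list per genotype no test was made. Computation used Python 3.11.15, numpy 2.4.6, scipy 1.17.1, pandas 2.3.3 and matplotlib 3.10.9, and the steps were tested on simulated data. All 38 members were accounted for. Named with values were members with a region, the nearest flanking genes, and the highest, lowest and closed genes of the other lists. Distances of the remaining members were added after their values were seen. Members and lists were chosen with earlier results of these data known. A gene model without a coding transcript was left out of the flanking genes. The RNA-seq samples were not analysed here. The peak lists are those attached to replicate 1 of each genotype, and no separate list of the second ATAC-seq replicates was used. Of the other lists, 3 genes are not reported here and were left out of the counts.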

Additional observations from a re-analysis of the deposited data

How the results depend on the processing

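Leaving out a replicate was not possible with 1 list per genotype. No paired analysis was possible because each genotype has 1 list. Of 54 alternatives, 35 left the result within 1.5 times for counts or within 5 points for percentiles. For lists of equal numbers the db/db list was cut to its 46189 regions of highest −log10 p, not of highest signal. Open Hox promoters numbered 1 in control and 1 in db/db with a window of 500 bp or with the TSS covered, and 1 in db/db with lists of equal numbers. With lists of equal numbers the db/db list also had 5 Hox regions in place of 10, and regions found in 1 list only numbered 2 in control (13.1% of all regions) and 0 in db/db (12.9%). With every row counted, control had 12 in place of 7. The median percentile of Hox regions was 28.0 in control and 29.3 in db/db when ranked by −log10 p, 36.4 in control for regions within 1 kb of a TSS, and in db/db 50.6 with a −log10 q of at least 5 and 50.7 with 5 kb to each side of a gene. With 3 flanking genes to each side, 19 of 24 promoters were open in both lists. The median change in rank of shared Hox regions turned from 10.1 to -7.13 points with lists of equal numbers and to -4.20 when ranked among shared regions only, an alternative chosen after seeing the data, and was 5.04 for regions within 1 kb of a TSS. The value with lists of equal numbers rests on the 5 Hox regions kept in db/db. Ranked by −log10 p the median change was 14.3 points. Its direction was thus not the same in all settings, and the reason was not tested. Read depth is unknown, so a closed promoter is one with no region in a list, and weak accessibility below the threshold of the lists cannot be told apart from none.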
